A study of Mus musculus with 2 samples.

Results

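The Gimap genes encode a family of GTP-binding proteins found mainly in blood cells, and 8 of them (Gimap1, Gimap3, Gimap4, Gimap5, Gimap6, Gimap7, Gimap8 and Gimap9) were followed here among the 32285 genes counted in 2 single-cell RNA-sequencing libraries of mouse bone marrow stem and progenitor cells. The family was chosen by its values in these same libraries, in which Gimap6 stood out among the cells that resembled hematopoietic stem cells (HSCs), so its differences between the libraries are given as a description with no test. Both libraries came from LSK cells (Lin-Sca-1+c-Kit+, the marrow fraction that holds stem and early progenitor cells) of mice aged 8 to 10 weeks that carried the leukemia oncogene BCR-ABL, which in the study's methods was driven in stem and progenitor cells through the SCL promoter and switched on by tetracycline withdrawal, with LSKs taken 2 weeks later. The library called WT (miR-142 WT CML, strain BCR-ABL+) kept the microRNA miR-142, and the library called KO (miR-142 KO CML, strain Mir142 KO BCR-ABL+) lacked it. CML is chronic myeloid leukemia. Each genotype was 1 library with no replicate, and how many mice each held is not given in the sources used here, so every difference compares 2 libraries and every interval is a 95% interval for counting error only.

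GIMAP proteins (GTPases of immunity-associated proteins) share a GTP-binding domain of the AIG1 type, and several of them are anchored in intracellular membranes. They are best known from lymphocytes: loss of Gimap5 or Gimap1 in mice depletes lymphocytes, and GIMAP5 has been tied to the survival and quiescence of T cells and of hematopoietic stem and progenitor cells. GIMAP6 binds an ATG8-family protein of the autophagy pathway, GIMAP4 is found in T cells, GIMAP3 is the close paralog of GIMAP5, and GIMAP8 is the long member with several GTP-binding domains in a row.

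After barcodes under 8000 unique molecular identifiers (UMIs, each counting 1 captured RNA molecule) or at 10% or more mitochondrial UMIs were set aside, 5363 WT and 5458 KO cells remained, with a median of 19443 and 24182 UMIs and with 4 cell barcodes shared between the libraries. Mir142hg, the host transcript of the deleted microRNA, was at 9.12 UMIs per 1000000 UMIs (CPM) in WT and at 0.126 CPM in KO, and the sorted markers Kit (86.4 and 68.3 CPM) and Ly6a, which encodes Sca-1 (96.8 and 153 CPM), were present in both. Cells were assigned to groups by lists of marker genes that held no Gimap gene. The HSC-like group (835 WT cells, 15.6%; 223 KO cells, 4.09%) was led by genes that included 6 of its 10 markers, among them Procr, Mecom, Hlf and Mllt3, whereas neutrophil-primed-like cells made up 3.002% of WT and 26.7% of KO. In all, 166 WT and 71 KO cells had an HSC score within 0.1 of the gate.

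The 8 genes lie side by side on mouse chromosome 6 in a cluster of 124 kb (GRCm38, chr6:48647234-48770851, GENCODE release M21). From one end they run Gimap8 (chr6:48647234-48660875, plus strand), Gimap9 (chr6:48676129-48679114, plus), Gimap4 (chr6:48684549-48692060, plus), Gimap6 (chr6:48701582-48708225, minus), Gimap7 (chr6:48718621-48724636, plus), Gimap1 (chr6:48739054-48743795, plus), Gimap5 (chr6:48746197-48754210, plus) and Gimap3 (chr6:48764464-48770851, minus). Their coding sequences are 876 to 987 bases long, apart from Gimap8 with 2067. Gimap3 and Gimap5 shared 190 stretches of 50 bases, and no other pair shared any. No stretch lay in the last 500 bases, the end that a 3′ library reads, of both transcripts, with 1 transcript per gene compared. Matches between the end of a transcript and the rest of the other were not counted apart. Because the KO library lacks miR-142, its mature sequences (RefSeq, GRCm38.p6, plus strand of chromosome 11) are shown with the seed, bases 2 to 8, in capitals:
mmu-miR-142a-3p (chr11:87756903-87756925): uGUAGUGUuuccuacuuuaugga
mmu-miR-142a-5p (chr11:87756867-87756887): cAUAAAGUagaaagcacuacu
A match to the 3p seed (ACACTAC) was found in the 3′ UTR of 0 of the 8 members and 5.41% of 20585 genes, and a match to the 5p seed (ACTTTAT) in 0 of 8 members and 13.1% of genes, with 1 transcript per gene, that of the longest coding sequence. Over all annotated coding transcripts, a shorter-coding form of Gimap6 held a 5p match and no other member held either. The promoters of the members with the most UMIs in HSC-like cells, Gimap6 and Gimap1, are printed from 250 bases before to 50 after the start site (RefSeq, GRCm38.p6), 5′ to 3′ on each gene's own strand, with a match to the RUNX letters TGTGGT, read on either strand, in capitals. Gimap6 held none, and Gimap1 held 1:
Gimap6 (chr6:48708195-48708494, minus strand): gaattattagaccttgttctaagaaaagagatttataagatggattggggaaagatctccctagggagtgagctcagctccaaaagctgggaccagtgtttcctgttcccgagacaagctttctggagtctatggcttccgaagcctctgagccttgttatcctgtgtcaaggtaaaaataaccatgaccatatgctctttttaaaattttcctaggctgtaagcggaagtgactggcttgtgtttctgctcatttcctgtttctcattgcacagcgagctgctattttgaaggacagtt
Gimap1 (chr6:48738797-48739096, plus strand): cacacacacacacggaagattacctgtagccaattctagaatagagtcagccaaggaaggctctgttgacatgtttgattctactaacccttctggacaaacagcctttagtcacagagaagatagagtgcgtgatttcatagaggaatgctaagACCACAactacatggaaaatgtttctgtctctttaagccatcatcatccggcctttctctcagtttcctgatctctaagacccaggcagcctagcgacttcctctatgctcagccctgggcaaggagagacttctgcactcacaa
With 4 motifs searched on both strands of 9 member windows (Gimap8 has 2), 3 windows held the RUNX letters (Gimap1, Gimap4 and Gimap7), against 16.8% of 32851 promoters. The ETS letters CCGGAA were in 0 of 9 against 14.9%, the GATA letters AGATAA in 0 of 9 against 11.2%, and the Ikaros letters TGGGAA in 1 of 9 (Gimap3) against 25.6%. No match overlapped another, and these matches describe the letters only. The promoters were 43.3% to 57.3% G and C, with a median over all promoters of 52.7%.

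Over all cells, the family as a whole was lower in KO. The 8 members summed to 164 CPM in WT (22724 UMIs) and 58.2 CPM in KO (9219 UMIs), 2.83-fold lower (log2 ratio -1.50, interval -1.53 to -1.46). In KO 7 members were lower and Gimap3 was higher. Gimap6 averaged 41.1 CPM in WT against 7.36 in KO, 5.59-fold lower (log2 -2.48, interval -2.57 to -2.39). Gimap1, which mature lymphocytes need for survival, was at 70.7 and 20.6 CPM (log2 -1.78, interval -1.84 to -1.72). Gimap5 was at 17.0 and 7.95 CPM (log2 -1.10) and Gimap9 at 29.1 and 16.9 CPM (log2 -0.79). The low-count members followed the same direction, Gimap7 with 305 and 33 UMIs (log2 -3.41, interval -3.97 to -2.88), Gimap8 with 427 and 233 (log2 -1.07) and Gimap4 with 63 and 34 (log2 -1.09, interval -1.73 to -0.46). Gimap3 went the other way, from 97 UMIs (0.702 CPM) to 557 (3.52 CPM), a log2 ratio of 2.32 (interval 2.01 to 2.65). By the rule of at least 1.5-fold with at least 50 UMIs over both libraries, 7 of 8 members were lower, where 17.3% of 14053 genes were, and 1 was higher, where 5.43% were. The median log2 ratio was -1.09 over the members and -0.15 over all genes tested, and since these ratios took part in choosing the family nothing further is read from the counts. With both libraries weighted to the mean composition of the cell groups, the summed log2 ratio was -0.94, that of Gimap6 -1.84 and that of Gimap1 -1.10. With the minimum lowered to 2000 UMIs the log2 ratio was -0.39 for Gimap8, -2.58 for Gimap7 and 0.18 for Gimap4, whose direction turned.

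**Figure D1:**
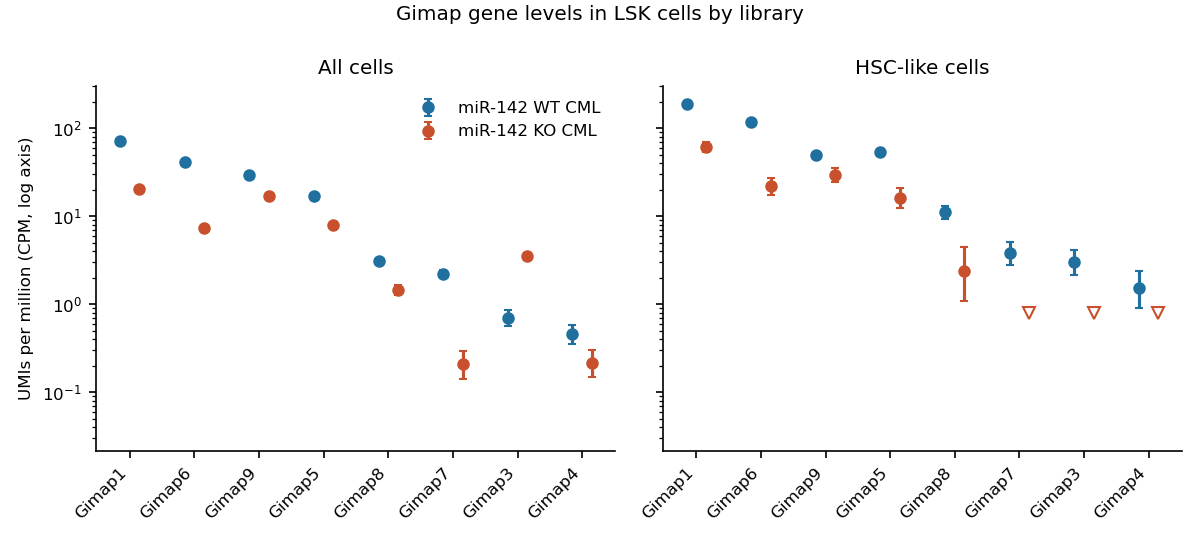
Level of each Gimap gene (CPM, log axis) in the WT and KO libraries, over all cells on the left and HSC-like cells on the right, with bars for the 95% counting interval. Open triangles mark 0 UMIs, drawn at the level of 3 UMIs. Gimap6 was at 41.1 and 7.36 CPM over all cells, and only Gimap3 among the 8 was higher in KO there.

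In HSC-like cells every member was lower in KO. Gimap6 was at 117 CPM in WT (1464 UMIs, interval 111 to 123) and 22.04 CPM in KO (84 UMIs, interval 17.6 to 27.3), a log2 ratio of -2.41 (interval -2.74 to -2.09), which places it 74th from the lowest of 10620 genes with at least 50 UMIs in these cells. Gimap1 was at 188 and 61.4 CPM (log2 -1.61) and Gimap5 at 53.0 and 16.3 CPM (log2 -1.70). Gimap8 was at 11.1 and 2.36 CPM, from 139 and 9 UMIs (log2 -2.23, interval -3.39 to -1.27). Of these 5, Gimap9 differed least, at 49.6 and 29.4 CPM (log2 -0.75, interval -1.06 to -0.46). Gimap3, Gimap4 and Gimap7 had 38, 19 and 48 UMIs in WT and 0 in KO, which against a floor of 3 UMIs over the KO cells makes them at least 3.85-fold, 1.93-fold and 4.87-fold lower. The 5 members with at least 50 UMIs were all at least 1.5-fold lower, where 13.5% of genes were, and none was higher, where 4.56% were. The levels of HSC-like cells belong to the values by which the family was chosen. Within the family, Gimap6 made up 27.4% of the family's UMIs in WT HSC-like cells and 16.8% in KO, while Gimap1 made up 44.0% and 46.7%, Gimap5 12.4% and 12.4%, and Gimap9 11.6% and 22.4%. UMIs count transcript ends, so these shares of UMIs are not scaled by transcript length. Of 11 markers of T cells, in which Gimap genes are best known, 6 in WT and 5 in KO had a UMI in HSC-like cells. They summed to 7.99 CPM in WT against 5.51 in KO. Lck was the highest (6.39 and 3.94 CPM), and Cd3e and Cd3g were at 0 in both.

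Read cell by cell, a smaller share of KO than of WT HSC-like cells held a Gimap6 UMI, and a smaller share held 3 or more. At 8000 UMIs per cell the mean was 1.06 Gimap6 UMIs in WT and 0.265 in KO. At such counts the shares cannot tell fewer cells with the transcript from fewer transcripts per cell. With each cell thinned to 8000 UMIs, 468 of 835 WT HSC-like cells (56.0%, exact interval 52.6% to 59.4%) and 42 of 223 KO cells (18.8%, 13.9% to 24.6%) had a Gimap6 UMI. Without thinning the shares were 73.5% and 27.8%, at median depths of 12469 and 13229 UMIs. As a comparison for free RNA, neutrophil-primed-like cells of the same libraries had a Gimap6 UMI in 2.48% (WT) and 0.686% (KO) of cells after thinning, at median depths of 65358 and 44147 UMIs before it. In 12.8% of WT and 1.79% of KO HSC-like cells there were 3 or more Gimap6 UMIs. At least 1 UMI of any member was found in 92.3% of WT and 65.5% of KO HSC-like cells, and 3 or more in 65.4% and 20.2%. Gimap5 was detected in 39.1% of the WT HSC-like cells that held a Gimap6 UMI and in 25.9% of those that did not (intervals 34.7% to 43.7% and 21.5% to 30.7%), and in 33.3% against 13.3% in KO (intervals 19.6% to 49.5% and 8.68% to 19.1%). For Gimap9 the intervals of the same shares overlapped in WT (35.9% and 30.2%) and in KO (33.3% and 18.8%). Those for Gimap1 also overlapped, at 80.8% and 74.7% in WT and 57.1% and 42.5% in KO.

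**Figure D2:**
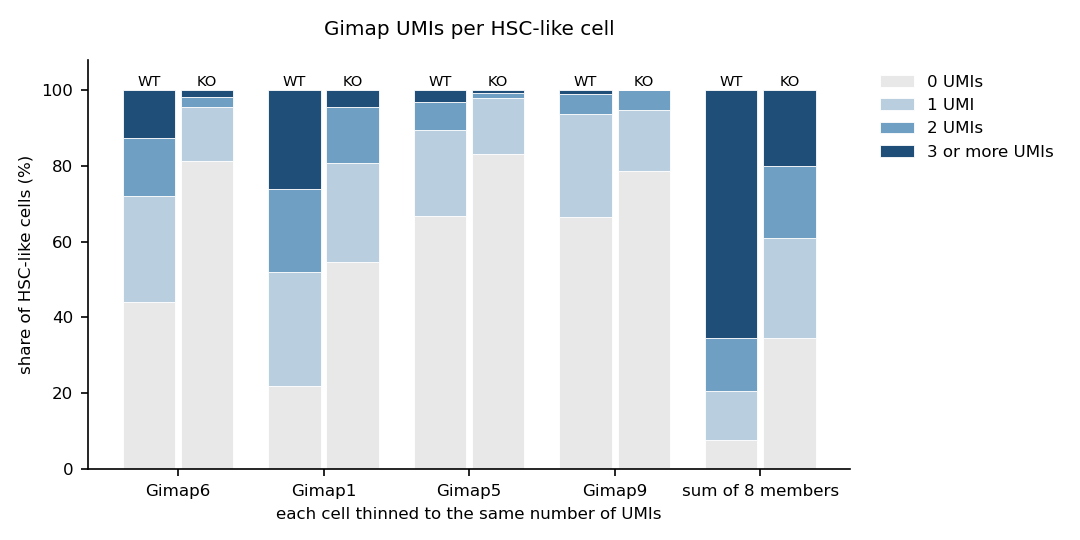
Share of HSC-like cells (percent) with 0, 1, 2, or 3 or more UMIs of 4 Gimap genes and of all 8 summed, each cell thinned to 8000 UMIs, WT (835 cells) beside KO (223 cells). Cells without a Gimap6 UMI made up 44.0% of WT and 81.2% of KO.

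HSC-like cells were called cycling where the score of S or G2/M phase genes was at or above the mean of all cells. The non-cycling ones had the higher Gimap6, Gimap1 and Gimap5 levels per total UMIs (CPM) in both libraries. Cycling cells held more UMIs, with medians of 17469 against 10572 in WT and 19955 against 9736.5 in KO. Without thinning, a Gimap1 UMI was found in 91.6% of cycling and 90.1% of non-cycling WT cells, and in 58.4% and 55.7% in KO. The part of RNA content in the CPM order was not tested. In the 466 non-cycling WT cells Gimap6 was at 157 CPM and in the 369 cycling ones at 87.7 CPM, and the KO values were 40.3 CPM (122 cells) and 12.1 CPM (101 cells). All 4 intervals were apart. Gimap1 showed the same order (232 and 156 CPM in WT, 94.7 and 43.3 CPM in KO), as did Gimap5 (74.1 and 37.7 CPM, 32.8 and 7.29 CPM). Non-cycling cells made up 466 of 835 HSC-like cells in WT and 122 of 223 in KO, and within each state Gimap6 had a log2 ratio of -1.96 (interval -2.39 to -1.57) in non-cycling and -2.85 (interval -3.43 to -2.32) in cycling HSC-like cells.

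Across the cell groups of the WT library, Gimap6 was highest in HSC-like cells. Unassigned non-cycling cells (95.8 CPM, interval 89.1 to 103) and innate lymphoid-like cells (93.3 CPM, interval 77.4 to 111) followed and did not differ from each other beyond their intervals. Megakaryocyte-like (57.9 CPM), immunoglobulin-high (51.2 CPM), erythroid-like (48.9 CPM) and lymphoid-primed-like cells (45.1 CPM) were next, each overlapping its neighbor in that order. Unassigned cycling cells (37.8 CPM) and mast/basophil-like cells (18.9 CPM) were lower. The lowest were monocyte-primed-like (6.70 CPM) and neutrophil-primed-like cells (3.62 CPM). In KO the order differed at the top: innate lymphoid-like (34.7 CPM, interval 30.5 to 39.4) and mast/basophil-like cells (34.0 CPM, interval 29.1 to 39.3) came before HSC-like cells (22.04 CPM), and neutrophil-primed-like cells were again lowest (0.970 CPM). Gimap1 and Gimap9 were also low in neutrophil-primed-like cells, at 4.76 and 6.28 CPM in WT and 2.29 and 9.26 CPM in KO. The Gimap1 and Gimap6 levels of these cells were below those in free RNA, taken from barcodes under 100 UMIs (Gimap1 77.4 CPM in WT and 29.0 in KO; Gimap6 36.2 and 9.96).

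**Figure D3:**
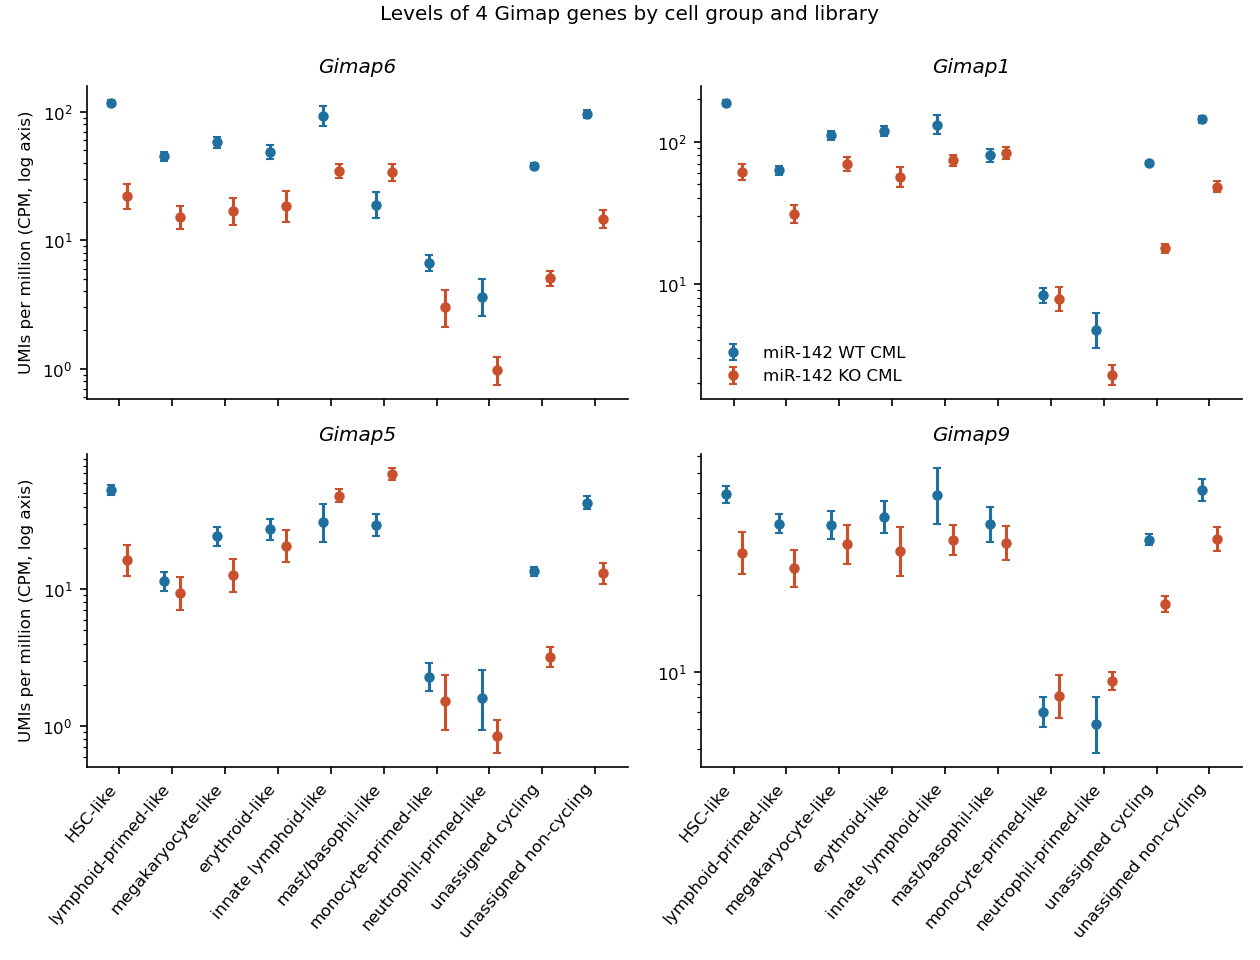
Level (CPM, log axis) of Gimap6, Gimap1, Gimap5 and Gimap9 in each of 10 cell groups with at least 30 cells in both libraries, WT beside KO, with 95% counting intervals. Gimap6 was lower in KO in every group shown except mast/basophil-like cells, and all 4 genes were lowest in monocyte-primed-like and neutrophil-primed-like cells.

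The direction held in most groups for the abundant members and turned in a few. Of 10 cell groups with at least 30 cells in both libraries, Gimap6 had an interval below 0 in 9 and above 0 in 1. Gimap1 had 8 below and 2 that included 0, and Gimap9 had 6 below, 1 above and 3 that included 0. Gimap5 had 5 below and 2 above, and Gimap3 had 2 below and 6 above. The share of all genes with as many groups below or above 0 was not computed, and all groups come from the same 2 libraries. The largest Gimap6 difference was in unassigned cycling cells, at 37.8 CPM in WT against 5.06 in KO (log2 -2.90, interval -3.12 to -2.69). Gimap7, a low-count member, had 112 UMIs in WT and 4 in KO in the same cells (log2 -4.70, interval -6.60 to -3.30).

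Mast/basophil-like cells (195 WT and 256 KO cells) were the exception for Gimap6. These cells carry the high-affinity IgE receptor and granule proteases. There Gimap6 was at 18.9 CPM in WT against 34.0 in KO (log2 0.84, interval 0.45 to 1.24), Gimap5 at 29.5 and 69.5 CPM (log2 1.24, interval 0.94 to 1.54) and Gimap8 at 6.23 and 16.9 CPM (log2 1.44, interval 0.79 to 2.13). The intervals of Gimap1 (80.1 and 83.7 CPM, log2 0.06, interval -0.15 to 0.27) and Gimap9 (37.9 and 32.0 CPM, log2 -0.24, interval -0.56 to 0.08) included 0. Split by mast cell proteases (Cma1, Tpsb2, Tpsab1) against basophil proteases (Mcpt8, Prss34), a split chosen after the values were seen, the higher levels lay in the mast-like cells. In mast-like cells (126 WT, 182 KO) Gimap5 was at 34.7 and 98.8 CPM, and at 23.0 and 17.6 CPM in 69 and 74 basophil-like cells. Gimap6 was at 19.95 and 48.0 CPM in mast-like cells and at 17.7 and 9.04 CPM in basophil-like ones, where its log2 ratio was -0.97 (interval -1.90 to -0.08). Gimap8 had 26 and 83 UMIs in mast-like cells, against 0 and 5 in basophil-like cells. Of 182 KO mast-like cells, 121 held a Gimap5 UMI, and the 10 with the most held 25.2% of its UMIs. Top doublet scores took 9.23% of WT and 10.2% of KO mast/basophil-like cells, and without them the log2 ratios were 1.41 for Gimap5, 0.98 for Gimap6 and 1.52 for Gimap8. Of 11 T cell markers, 6 in WT and 4 in KO had a UMI in mast/basophil-like cells, with summed levels of 6.95 and 8.83 CPM and Cd3e at 0 in both.

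Gimap3, the member that was higher in KO over all cells, was concentrated in innate lymphoid-like cells, a group of 70 WT and 250 KO cells led by Calca, Il7r, Icos and Gata3. There it had 12 UMIs in WT (9.25 CPM, in 6 cells) and 383 in KO (55.9 CPM, in 159 cells), a log2 ratio of 2.60 (interval 1.77 to 3.56), and these cells held 68.8% of the KO library's Gimap3 UMIs. Without innate lymphoid-like cells the log2 ratio over the remaining cells was 0.89 (0.621 and 1.15 CPM). In HSC-like cells the direction was the opposite, with 38 UMIs in 31 of 835 WT cells and 0 UMIs in 223 KO cells. Neutrophil-primed-like cells had 0 UMIs in WT and 48 in KO, at least 2.55-fold higher against the floor of 3 UMIs over the WT cells. The KO level there, 0.728 CPM, was below that of Gimap3 in KO free RNA (5.91 CPM, against 1.16 CPM in WT free RNA). Gimap5 was also higher in KO innate lymphoid-like cells (30.8 and 48.2 CPM, log2 0.64, interval 0.17 to 1.15), whereas Gimap6 (93.3 and 34.7 CPM) and Gimap1 (132 and 73.8 CPM) were lower. The cells of this gate differed between the libraries in other markers. T cell markers summed to 203 CPM in WT against 66.0 in KO, with Cd3e at 0 in both and Trbc1 the highest in WT at 135 CPM, NK cell markers to 106 and 44.1 CPM (Gzma the highest), and endothelial markers to 21.6 and 40.6 CPM (Stab2 the highest). Top doublet scores took 1.43% of WT and 14.8% of KO cells, and without them Gimap3 had a log2 ratio of 2.68. Without cells with more than a lone UMI of the T, NK, B and endothelial markers, the Gimap3 log2 ratio over all cells was 0.74. Over all cells of both libraries Cd79b, from the B cell list, was the highest of these markers. It was also the highest of them in HSC-like cells, so this filter does not single out lymphoid or endothelial cells. The part of the T, NK and endothelial markers in the innate lymphoid-like result was not tested.

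**Figure D4:**
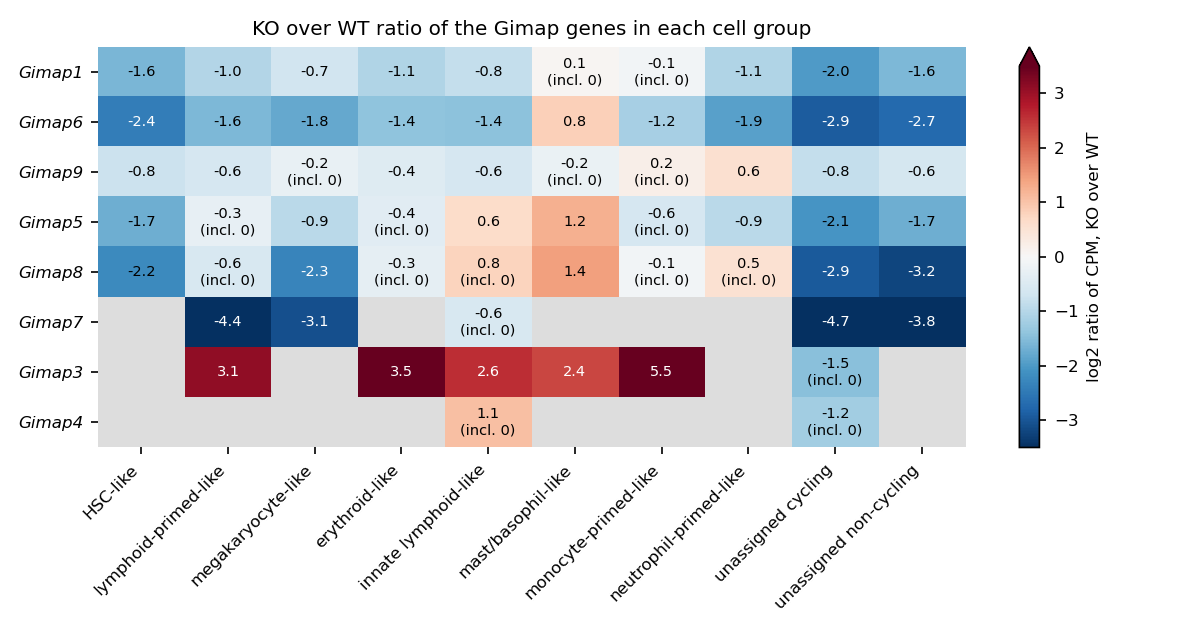
The log2 ratio of CPM, KO over WT, for each Gimap gene (rows) in 10 cell groups (columns), blue where lower and red where higher in KO; "incl. 0" marks a counting interval that includes 0, and gray cells have under 10 UMIs over both libraries or 0 in a library. Gimap6 is blue in every column except mast/basophil-like, and Gimap3 is red in 5 of the 6 columns it is drawn in.

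Gimap9 had the smallest difference of the 8 members over all cells. In the 10 cell groups its log2 ratios lay between -0.84 in unassigned cycling cells and 0.56 in neutrophil-primed-like cells (6.28 CPM in WT, 9.26 CPM in KO, interval 0.19 to 0.95). The share of neutrophil-primed-like cells with a Gimap9 UMI did not give the same order (9.32% of 161 WT and 7.07% of 1457 KO cells after thinning, intervals 5.31% to 14.9% and 5.81% to 8.51%). Over all cells Gimap9 took 17.7% of the family's UMIs in WT and 29.0% in KO, while Gimap6 took 25.004% and 12.6%.

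The genes with the most similar pattern to Gimap6 over the 20 sums of 10 cell groups and 2 libraries were Wnk1, a kinase of ion transport (Pearson r 0.96), Tpt1 (0.95), the acetyltransferase gene Crebbp (0.95), Gimap1 (0.95) and the cohesin loader gene Mau2 (0.94), of 7464 genes with at least 10 CPM. For the summed members they were Tpt1, Dennd1c, Cd84, the cytokine receptor kinase gene Jak1 and Resf1 (r 0.97 for each). The points share the 2 libraries and their depths, and the values are a description. Among the members themselves, r was 0.96 between Gimap1 and Gimap9, 0.94 between Gimap1 and Gimap5 and 0.93 between Gimap5 and Gimap8, while Gimap3 had r of 0.31 with Gimap6. Within each library alone (10 points) Gimap6 and Gimap1 had r of 0.95 in WT and 0.97 in KO. The HSC gate gene Hlf had r of 0.97 with Gimap6 in WT and 0.64 in KO, and the gate gene Mecom 0.96 and 0.83.

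Other immunity-associated GTPases, which are induced by interferon and act against intracellular pathogens, were counted beside the family. Of 18 listed, 17 were counted and 13 had at least 50 UMIs, of which 8 were at least 1.5-fold lower and 1 higher (median log2 -0.85), where 17.3% and 5.43% of all genes tested were (median log2 -0.15). Ifi47 was at 63.8 CPM in WT against 50.1 in KO (log2 -0.35), Gbp7 at 38.0 and 19.7 CPM (log2 -0.94), Gbp3 at 23.1 and 23.2 CPM (log2 0.01) and Irgm1 at 26.7 and 18.1 CPM (log2 -0.56). The ATG8 family and core autophagy genes, which build the autophagosome membrane, showed 0 of 14 past 1.5-fold in either direction (median log2 -0.07). Gabarap was at 219 and 228 CPM, Map1lc3b at 178 and 164 CPM, Gabarapl2, which encodes the ATG8 protein bound by GIMAP6, at 115 and 122 CPM, and Atg3 at 76.1 and 85.6 CPM. Of 12 survival and quiescence genes linked to GIMAP5, 1 was at least 1.5-fold lower and 0 higher (median log2 -0.30), beside the same 17.3%, 5.43% and median of -0.15 over all genes. The lower one was Foxo3, a transcription factor of stem cell quiescence, at 32.5 and 20.6 CPM (log2 -0.66). Among those with the most UMIs, Mcl1 was at 161 and 163 CPM, Txnip at 115 and 87.3 CPM and Gsk3b at 69.5 and 60.4 CPM. Foxo3 was at 47.2 and 39.6 CPM in HSC-like cells.

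Genes around the cluster were read for the same pattern. Within 200 kb on either side, 9 genes outside the cluster had at least 50 UMIs, of which 2 were at least 1.5-fold lower and 1 was higher (median log2 -0.47), where 17.3% of all genes tested were lower and 5.43% higher (median log2 -0.15). On the Gimap8 side lay Gm5111 (23.6 and 6.50 CPM, log2 -1.86), AI854703 (2.70 and 1.51 CPM, log2 -0.83), Zfp775 (log2 -0.58), Repin1 (log2 -0.52) and Lrrc61 (log2 -0.47). In HSC-like cells Gm5111 was at 54.5 and 24.9 CPM (log2 -1.13, interval -1.45 to -0.82). On the Gimap3 side lay Tmem176b (358 and 381 CPM, log2 0.09), its neighbor Tmem176a (190 and 278 CPM, log2 0.55), Gm7932 (log2 -0.07) and the amine oxidase gene Aoc1, with 21 UMIs in WT and 79 in KO (log2 1.71, interval 1.01 to 2.48). The share of all genes with a counting interval below 0 was not computed, so the sides of the cluster are not compared by their intervals. Inside the cluster, Gimap1os, an antisense transcript that overlaps Gimap1 from the opposite strand, was at 2.95 and 0.568 CPM (log2 -2.38), and 4833403J16Rik had 271 and 121 UMIs (log2 -1.36). In HSC-like cells Gimap1os had 164 UMIs in WT and 6 in KO.

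**Figure D5:**
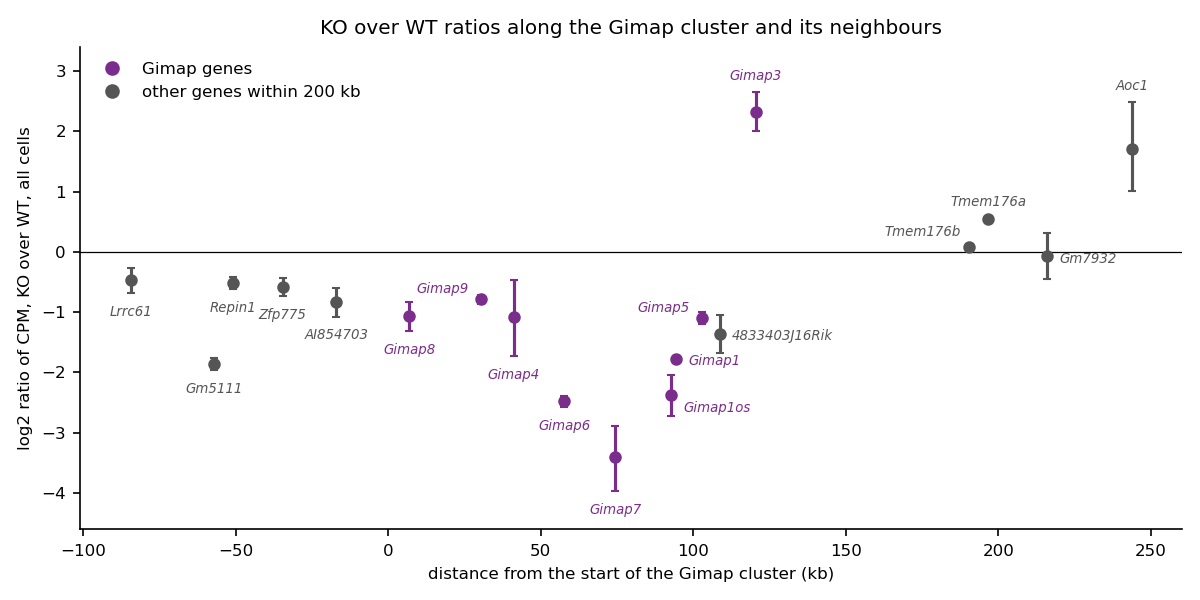
The log2 ratio of CPM over all cells, KO over WT, against the distance in kb from the start of the cluster, for the Gimap genes (purple) and the other genes within 200 kb that had at least 50 UMIs (gray), with 95% counting intervals. Gimap3, at the end of the cluster, is the only purple point above 0, and Tmem176b lies at 0.09.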

How the data were processed

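The measurements were 10x Genomics 3′ v3.1 single-cell RNA sequencing of 1 library per genotype. The authors deposited raw UMI counts per gene and barcode, unfiltered (1957898 WT and 2055088 KO barcodes), made with Cell Ranger 6.1.2 on mm10 per the labels, although the matrix header gives software version 4. From these counts, barcodes with at least 8000 UMIs and under 10% mitochondrial UMIs were kept (the study kept cells above 300 UMIs), leaving 138183896 and 158438757 UMIs. Cells were thinned to 8000 UMIs, scored on marker lists and assigned to the highest score of at least 1, otherwise left unassigned. UMIs were summed per library and group and divided by total UMIs (CPM). Ratios carry exact conditional binomial 95% intervals, and levels and shares exact Clopper-Pearson 95% intervals, all for counting error only. Shares of 0 and folds against 0 use a floor of 3 UMIs over the group.

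Automatic doublet calls marked 0.0186% and 0% of cells and were not used. Cells with the highest scores, at a rate of 0.8% per 1000 cells, were left out as an alternative. With 1 library per genotype no test was made. The members and lists were chosen with earlier results of these data known. All 8 members were named, with the 5 genes most alike to Gimap6 and to the sum by Pearson r of log2(CPM + 1) among genes of at least 10 CPM, every gene within 200 kb with at least 50 UMIs, and the 4 genes with most UMIs of each list, of which 1 is not reported here. The interval procedure was tested on simulated counts drawn independently for each gene. These held no clumping of UMIs by cell and no spread between replicate libraries, so the test covers counting error only. Python 3.11.15, numpy 2.4.6, scipy 1.17.1, pandas 2.3.3 and scanpy 1.11.5 were used.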

Additional observations from a re-analysis of the deposited data

Results flagged for a closer look

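Among groups with a UMI in both libraries, 5 members had opposite signs in a pair of groups, with counting intervals that excluded 0 on both sides. The difference between the groups was not tested, and the share of all genes with such a pair was not computed. Gimap4 is outside this count, with 2 and 7 UMIs in erythroid-like cells (log2 2.58) and 19 and 0 in HSC-like cells. Gimap6 had a log2 ratio, KO over WT, of 0.84 in mast/basophil-like cells and -2.90 in unassigned cycling cells. Gimap5 was at 1.24 and -2.07 in the same groups. Gimap8 was at 1.44 in mast/basophil-like and -3.22 in unassigned non-cycling cells. Gimap9 was at 0.56 in neutrophil-primed-like and -0.84 in unassigned cycling cells. Gimap3 was at 5.47 in monocyte-primed-like cells, from 1 UMI in WT and 19 in 7 KO cells, and at -3.16 in unassigned non-cycling cells, from 7 and 1 UMIs. Without top doublet scores the monocyte-primed-like level of Gimap3 in KO was 0.681 CPM, against 1.46 CPM with them, and WT had 0 UMIs.

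Barcodes of 2000 to 7999 UMIs with under 10% mitochondrial UMIs (880 in WT and 1140 in KO) are below the minimum of the report's cells. They enter only where that minimum is lowered to 2000. The share of all genes higher in KO in these barcodes was not computed, so members are given by name without a count. Gimap3 was at 14.2 CPM in WT and at 134 CPM in KO there (64 and 813 UMIs, log2 3.24), Gimap4 had a log2 ratio of 2.46 (8 and 59 UMIs), Gimap8 of 1.25, Gimap5 of 1.03 (64.2 and 131 CPM) and Gimap9 of 0.39. Gimap1 was close to level (193 and 196 CPM, log2 0.03), and Gimap6 was at 120 and 101 CPM (log2 -0.25, interval -0.42 to -0.08). In the same barcodes Il7r was at 90.1 and 622 CPM and Gata3 at 51.1 and 310 CPM, the neutrophil granule gene Elane was at 53.6 and 148 CPM, and Mir142hg had 100 UMIs in WT and 0 in KO. The part of lymphoid or myeloid cells in these values was not tested.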

How the results depend on the processing

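No paired analysis was possible because each group has 1 library. Of 109 alternatives to 19 results, 3 turned the direction: Gimap4 over all cells with a minimum of 2000 UMIs (log2 0.18), and Gimap5 (-0.39) and Gimap6 (-0.97) among mast/basophil-like cells when only basophil-like cells were kept. For the summed members, Gimap6 over all and in HSC-like cells, and the counts of genes, 17 alternatives fell outside the main counting interval and 19 did not. For the other results 30 fell outside it in the same direction, and 40 did not move. The summed log2 ratio was -1.42 with median-of-ratios size factors, -1.10 with a minimum of 2000 UMIs and -0.94 weighted to the mean composition. It was -1.73 without innate lymphoid-like and immunoglobulin-high cells. Without cells with more than a lone UMI of the T, NK, B and endothelial markers it was -1.77. The Gimap6 log2 ratio over all cells was -2.01, -1.84, -2.72 and -2.74 under the last 4 of these. In HSC-like cells Gimap6 was at -2.81 with a minimum of 2000 UMIs, -2.86 with 16000, -1.86 with a stricter gate and -1.96 in non-cycling cells. It was at -2.88 without the 10 cells with most Gimap6 UMIs in each library, an alternative chosen after seeing the data, as were those on mast/basophil-like and innate lymphoid-like cells. The difference in the share of HSC-like cells with a Gimap6 UMI, -37.2 points, was -29.5 with a minimum of 16000 UMIs, -45.7 without thinning and -17.0 when thinned to 2000. The cause of these shifts was not tested. Genes at least 1.5-fold lower numbered 2433, and 1637 with at least 200 UMIs per gene. Depth limited Gimap3, Gimap4 and Gimap7 in HSC-like cells.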
